A study of Mus musculus with 8 samples.

Results

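The genes described here are 44 genes of DNA replication and of entry into S phase, taken by name out of the 26930 genes of the deposited count table. They cover the loading and activation of the replicative helicase, the clamp and its loader, the polymerases with primase and RPA, Okazaki fragment maturation, nucleotide supply, chromatin assembly and cyclin E. Members were taken by gene symbol and not by a threshold on a measured value, although earlier results of these data were known when the set was chosen. All 44 passed the filter on low counts, and the lowest count of any member in any library was 22.

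The RNA came from mouse embryonic fibroblasts carrying OKSM, the reprogramming factors Oct4, Klf4, Sox2 and Myc, collected as reprogramming intermediates on day 8 in the medium that the labels call AGi. Cells were either WT, which the labels also describe as H3, or K36M, a histone H3 mutant with methionine at the lysine 36 position. Each genotype was grown with Repsox at 250 nM, which blocks the kinase of the type I receptor for TGF-beta, or with TGF-beta 1 at 2.5 ng/ml. This gives 4 groups of 2 rRNA-depleted libraries: WT Repsox, WT TGF-beta, K36M Repsox and K36M TGF-beta. All 4 groups share OKSM and the base medium, and no library without either agent was analysed here, so a medium difference sets a stimulated against an inhibited pathway. How the mutant histone was expressed is not given in the sources used here. Nothing in the labels tells if both libraries of a group are independent cultures or animals, and p-values then reflect spread among these libraries alone, which may be technical.

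A cell prepares for replication in G1, when the origin recognition complex, Cdc6 and Cdt1 load the MCM helicase onto DNA. At the start of S phase the Dbf4-dependent kinase Cdc7 and cyclin-dependent kinases switch the helicase on by recruiting Cdc45 and the GINS complex, after which primase and the polymerases copy both strands behind it. Many of these genes are transcribed in late G1 under E2F factors held in check by the retinoblastoma family, and TGF-beta is known to hold epithelial cells in G1. In bulk RNA, fewer cells in S phase and less RNA per cell cannot be told apart.

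Libraries held 10928302 to 15594217 counts, and TMM factors ran from 0.894 in the second WT TGF-beta library to 1.06 in the second WT Repsox library. The factors of the 2 WT TGF-beta libraries, 0.911 and 0.894, were the lowest of the 8. H3f3a and H3f3b, which encode histone H3.3, were counted in every group, but gene counts do not separate a mutant transcript from a normal one and so do not check the genotype label. The identity of the cells differed between groups as well. The summed level of 15 fibroblast and mesenchymal markers lay at 6065 to 6709 CPM (read counts scaled by the TMM-corrected library total) in WT Repsox, 19770 to 21500 in WT TGF-beta, 2013 to 2039 in K36M Repsox and 2967 to 3134 in K36M TGF-beta. The summed level of 12 epithelial markers lay at 2596 to 2738, 501 to 569, 6107 to 6349 and 5273 to 5498 CPM in the same order. In WT, TGF-beta against Repsox called 8 fibroblast markers higher and 6 lower of 15, and 11 of 12 epithelial markers lower. In K36M the counts were 10 higher and 2 lower of 15, and 3 higher and 5 lower of 12. Of all tested genes, 29% were called higher and 33.4% lower in WT, and 24.7% and 23.6% in K36M. The 13 pluripotency markers summed to 2055 to 2334, 1449 to 1490, 1890 to 1934 and 1493 to 1515 CPM. In WT, 2 were called higher and 10 lower under TGF-beta, with a median log2 fold change of -5.01. In K36M, 3 were higher and 8 lower, with a median of -0.33. Under TGF-beta, 10 were higher and 3 lower in K36M than in WT (median 4.86). Of all tested genes, 36.4% were higher and 33.9% lower there. The sums of the 2 TGF-beta groups were nonetheless close. They include Oct4, Sox2 and Klf4, whose counts may include the OKSM transgene. Macrophage and blood markers summed to at most 80.3 CPM, endothelial markers to at most 121 and muscle markers to at most 49.5. None of the listed markers was at 0 in all 8 libraries. The WT TGF-beta libraries, in which the replication genes were low, were thus also the libraries with the highest fibroblast and the lowest epithelial sums, and the part of cell identity in the results was not tested.

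Replication genes were low in WT cells under TGF-beta and at similar levels in the other 3 groups. The 44 genes together took 0.398% and 0.381% of all counts in WT Repsox, 0.136% and 0.131% in WT TGF-beta, 0.409% and 0.408% in K36M Repsox, and 0.397% and 0.392% in K36M TGF-beta. As a sum of normalised levels this was 3880 and 3606 CPM, 1492 and 1470, 4025 and 3948, and 3877 and 3741. The WT TGF-beta pair stood apart from the other 6 libraries, whose values ran from 3606 to 4025 CPM. Taken gene by gene, both WT TGF-beta libraries lay below all 6 others for 40 of the 44 members, a placement found in 29.5% of the 15789 genes tested. The exceptions were Fen1, Rrm1, Ccne1 and Ccne2.

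**Figure D1:**
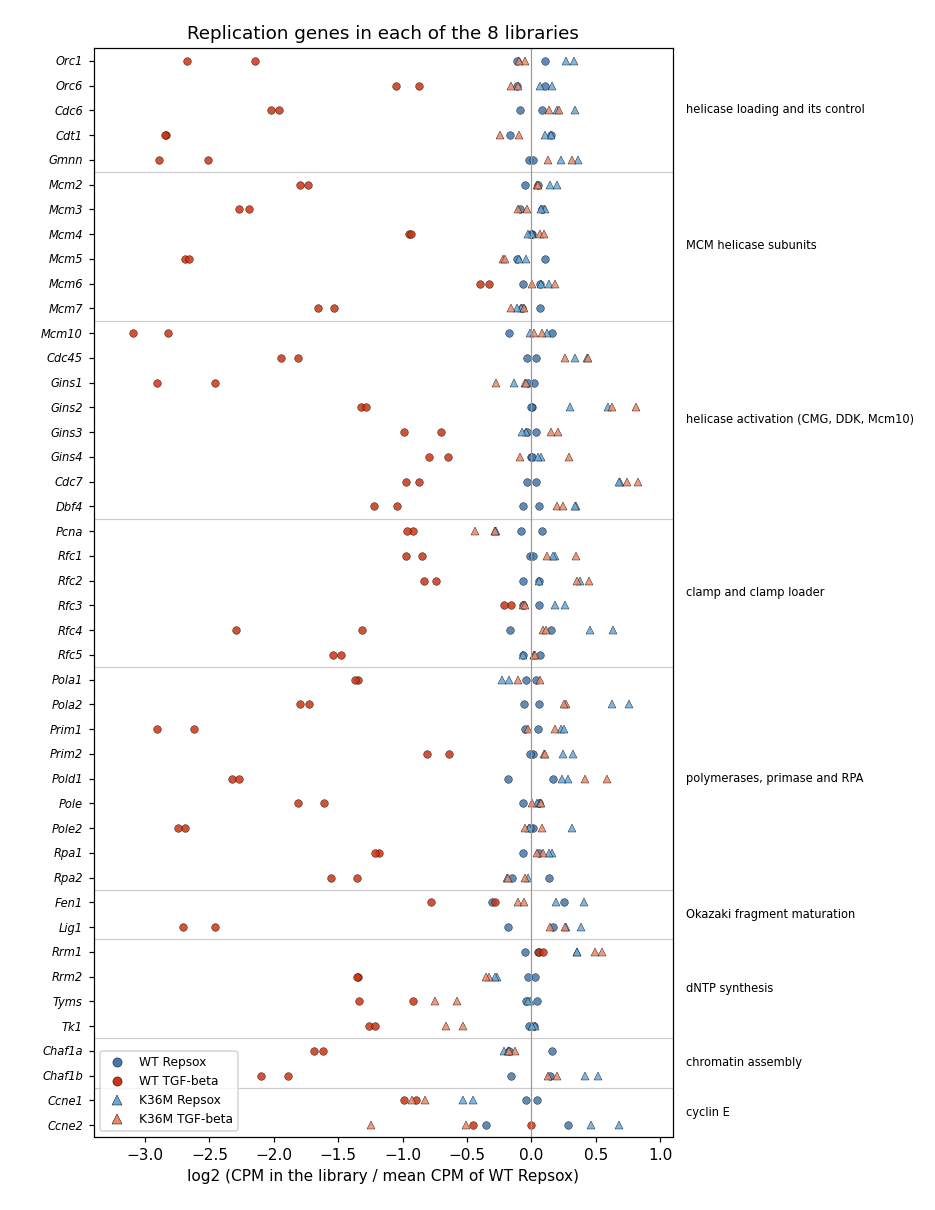
Level of each of the 44 replication genes in each of the 8 libraries, as the log2 ratio of its CPM to the mean CPM of the 2 WT Repsox libraries, with genes grouped by role. Circles are WT and triangles K36M, and the red circles (WT TGF-beta) lie left of all other points for 40 of the 44 genes.

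In WT cells, 40 of the 44 genes were lower under TGF-beta than under Repsox and 0 were higher, against 33.4% of all tested genes called lower, 29% called higher and 62.4% called either way at an adjusted p below 0.05. The 2 groups did not overlap for 42 members, against 79.4% of all genes. The median log2 fold change was -1.41 over the 44, beside -0.07 over all genes tested. Of the 40, 29 fell at least 2-fold, against 18.3% of all genes, and for 25 members the whole 95% interval lay beyond a 2-fold fall. The mean in WT TGF-beta was at 25% of the WT Repsox mean or less for 11 members and at 75% or more for 4. The members that did not pass the test were Rfc3, Fen1, Rrm1 and Ccne2. The size of the fall followed neither the mean level nor the exon length of the genes: across the 44 genes, which share the same libraries, Spearman's rho was 0.03 and -0.05.

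In K36M cells the same change of medium left most of the 44 genes near their Repsox level. Lower calls numbered 9 and higher calls 1, against 23.6% and 24.7% of all tested genes (48.3% either way), with a median log2 fold change of -0.08 beside 0.01 over all genes. The 95% interval stayed inside 2-fold for 43 members, among them all 34 that did not pass the test. Ccne2, the exception, fell more than 2-fold, a size reached by 8.25% of all genes in the lower direction. The 9 that fell were Orc1, Cdt1, Rfc4, Pola2, Tyms, Tk1, Chaf1b, Ccne1 and Ccne2, and Pold1 rose. Pola2, Tyms, Tk1, Ccne1 and Ccne2 were lower under all 16 alternatives, whereas Cdt1 was called under 14, Orc1 under 12, Pold1 under 12, Chaf1b under 10 and Rfc4 under 7. Upper quartile scaling gave 3 higher and 7 lower calls. Without the second K36M TGF-beta library 5 were lower, and the 1 higher call became 3 or 2 without the first or second WT Repsox library and 0 without the second K36M Repsox or the first K36M TGF-beta library.

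**Figure D2:**
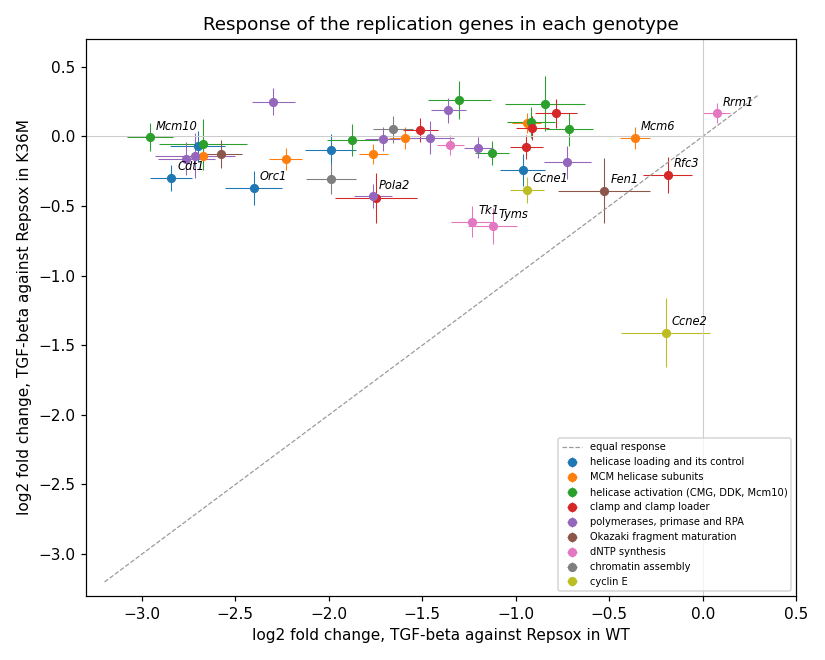
TGF-beta against Repsox in WT (horizontal axis) and in K36M (vertical axis), as log2 fold changes of the 44 genes, coloured by role, with bars of 1 standard error. The dashed line marks an equal response; most genes lie above it near 0 on the K36M axis, Rrm1, Rfc3 and Fen1 lie close to it, and Ccne2 lies below it.

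The difference between the 2 responses was tested directly as an interaction, the TGF-beta response in K36M minus that in WT. It was positive for 40 members and negative for 1, Ccne2, against 28.5% and 22.6% of all tested genes (51% either way), with a median of 1.39 on the log2 scale beside 0.09 over all genes. For 30 members the positive difference was at least 2-fold, against 17.6% of all genes, and for Ccne2 the negative difference was at least 2-fold, against 9.18%. Rfc3, Fen1 and Rrm1 did not pass this test.

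All 5 genes of helicase loading and its control fell in WT under TGF-beta and all 5 had a positive interaction. Of all tested genes, 33.4% fell in WT and 28.5% had a positive interaction. Cdt1 (chr8:125091915-125097028, mm9), the factor that brings the MCM complex to origins, measured 128 and 103 CPM in WT Repsox, 16.1 and 16.0 in WT TGF-beta, 128 and 124 in K36M Repsox, and 107 and 97.1 in K36M TGF-beta. Both WT TGF-beta libraries lay far below the rest, and the K36M pairs did not overlap either. The fall was 7.17-fold in WT (log2 fold change -2.84 ± 0.11 SE, adjusted p = 1.03e-15) and 1.23-fold in K36M (-0.30 ± 0.09, adjusted p = 0.0129). The K36M call was lost without the first K36M Repsox library (adjusted p = 0.0901) or the second K36M TGF-beta library (0.137).

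Gmnn (chr13:24843714-24853792) encodes geminin, which binds Cdt1 and blocks relicensing after S phase has begun. It measured 35.9 and 36.7 CPM in WT Repsox, 6.37 and 4.88 in WT TGF-beta, 46.6 and 42.5 in K36M Repsox, and 45.1 and 39.8 in K36M TGF-beta. The WT groups did not overlap and the K36M groups did. Gmnn fell 6.5-fold in WT (-2.70 ± 0.15, adjusted p = 2.85e-13) and was not called in K36M (-0.07 ± 0.11, 95% interval -0.31 to 0.16). The ratio of Cdt1 to Gmnn, in CPM per kb of exon, was 1.93 and 1.52, 1.37 and 1.78, 1.49 and 1.58, and 1.29 and 1.33 in the 4 groups. The WT pairs of this ratio overlapped.

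Cdc6 (chr11:98769115-98785254), the ATPase that works with the origin recognition complex, measured 33.8 and 30.0 CPM in WT Repsox, 7.83 and 8.19 in WT TGF-beta, 40.4 and 36.5 in K36M Repsox, and 37.0 and 35 in K36M TGF-beta. Its fall in WT was 3.98-fold (-1.99 ± 0.14, adjusted p = 1.57e-11), while the K36M pairs overlapped (-0.10 ± 0.11, adjusted p = 0.514). The origin recognition subunits differed from each other in WT. Orc1 fell 5.28-fold, from 38.5 and 33.0 CPM to 8.09 and 5.6, and Orc6 (chr8:87823531-87832177) fell 1.95-fold, from 34.4 and 39.9 CPM to 20.2 and 17.9. In K36M, Orc6 measured 41.4 and 38.8 CPM under Repsox and 34.5 and 33.2 under TGF-beta, which was not called (-0.24 ± 0.11, adjusted p = 0.0836). Its interaction of 0.72 ± 0.17 was the lowest of the 5, and that of Gmnn, 2.63 ± 0.19, the highest.

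The MCM genes encode the 6 subunits of a ring in which Mcm2 to Mcm7 each take 1 place. All 6 fell in WT under TGF-beta, against 33.4% of all tested genes, but by very different amounts. Mcm5 (chr8:77633427-77652338) fell the most, 6.37-fold, from 247 and 212 CPM in WT Repsox to 35.6 and 36.5 in WT TGF-beta (-2.67 ± 0.09, adjusted p = 5.68e-17). In K36M it measured 215 and 223 CPM under Repsox and 197 and 199 under TGF-beta, which was not called (-0.14 ± 0.08, adjusted p = 0.15). Mcm2 (chr6:88833469-88848774), a subunit that also binds histones, went from 240 and 224 CPM to 67.0 and 69.7 in WT and from 267 and 256 to 239 and 241 in K36M. Its WT fall was 3.39-fold (-1.76 ± 0.08, adjusted p = 5.81e-15), and its K36M difference was not called (-0.13 ± 0.07, adjusted p = 0.159). Mcm3 fell 4.70-fold, Mcm7 3.02-fold and Mcm4 1.92-fold in WT, and none of the 3 was called in K36M.

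Mcm6 (chr1:130228168-130256233) stood at the other end. It measured 205 and 188 CPM in WT Repsox, 149 and 156 in WT TGF-beta, 207 and 216 in K36M Repsox, and 223 and 197 in K36M TGF-beta. The WT groups did not overlap, but the fall was only 1.29-fold (-0.36 ± 0.08, adjusted p = 0.000401). Its interaction of 0.36 ± 0.11 (adjusted p = 0.011) was lost without the first WT TGF-beta library (adjusted p = 0.0649), the first K36M Repsox library (0.0557) or the first K36M TGF-beta library (0.0954).

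The subunit transcripts were spread more widely in WT TGF-beta than in the other groups. Per kb of exon, the highest of the 6 was 1.54 and 1.55 times the lowest in the WT Repsox libraries, 3.34 and 3.43 times in WT TGF-beta, 1.71 and 1.69 times in K36M Repsox, and 1.47 and 1.58 times in K36M TGF-beta. The ratio of Mcm6 to Mcm5, also per kb, was 0.665 and 0.708, 3.34 and 3.43, 0.773 and 0.775, and 0.904 and 0.794 in the same order. Only in the WT TGF-beta libraries was Mcm6 the more abundant of the pair. About 12.6% of the Mcm7 exon bases are shared with Cops6, Ap4m1 and the microRNA genes Mir25 and Mir93. Reads over these bases may have been counted with Mcm7 or left out, as the settings of the counting are not given.

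**Figure D3:**
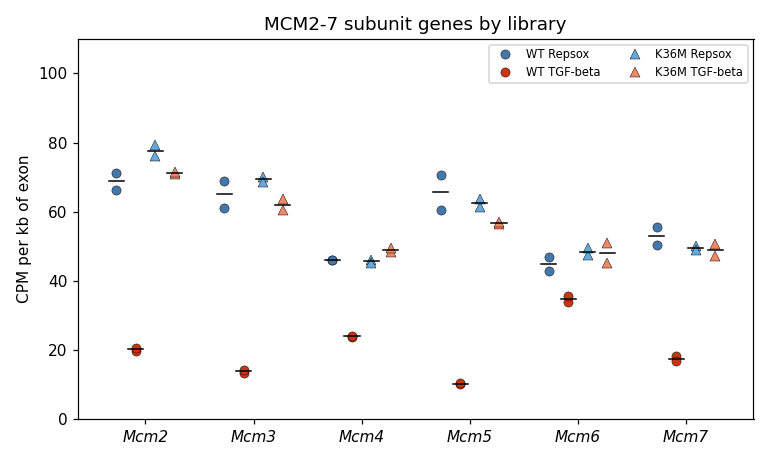
CPM per kb of exon for the 6 MCM subunit genes in each library, with a short bar at the mean of each group of 2. In WT TGF-beta (red circles) Mcm5 is the lowest subunit and Mcm6 the highest, a ratio of 3.39 on average, while in the other groups the highest is on average at most 1.70 times the lowest.

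Promoter letters of several members are shown because genes with the same E2F-type letters fell by such different amounts. RefSeq promoter windows on GRCm38.p6, 250 bases before to 50 after each start, were matched for 35 of the 44 members. The letters TTTCCCGC, TTTCGCGC, TTTGCCGC and TTTGGCGC, searched on both strands and allowed to overlap, were found for 13 of the 35 genes (37.1%) and for 704 of 27025 genes (2.6%) in all windows. The member windows were richer in G and C, with a median of 61.3% against 52.7% over all windows. The members were Cdc6, Cdt1, Gins3, Lig1, Mcm3, Mcm5, Mcm6, Mcm7, Orc1, Pola1, Pold1, Pole2 and Rfc3. The lines below give bases upstream of the start, 5′ to 3′ on the gene's strand, with the matched letters in capitals: Mcm5 from chr8:75109341-75109382 (plus strand, 2 overlapping matches), Mcm6 from chr1:128359730-128359830 (minus strand, 3 matches of which a pair overlaps), Cdc6 from chr11:98907998-98908035 (plus), Orc1 from chr4:108579412-108579449 (plus) and Rfc3 from chr5:151651209-151651233 (minus).
Mcm5: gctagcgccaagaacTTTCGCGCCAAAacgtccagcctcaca
Mcm6: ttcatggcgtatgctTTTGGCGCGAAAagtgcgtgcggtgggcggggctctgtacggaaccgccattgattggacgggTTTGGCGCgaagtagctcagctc
Cdc6: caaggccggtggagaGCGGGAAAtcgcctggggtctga
Orc1: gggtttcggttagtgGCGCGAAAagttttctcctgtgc
Rfc3: agtgacgtcgcacgcTTTCGCGCtc

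Mcm5, with 2 matches, fell 6.37-fold in WT and Mcm6, with 3, fell 1.29-fold, while Rfc3, with 1 match upstream of the start and 2 in the whole window, was not called. Over the 13 genes with these letters the WT log2 fold change ranged from -2.84 to -0.19 with a median of -2.23, and over the 22 matched genes without them from -2.96 to 0.07 with a median of -1.29. Mcm10 and Prim1 are among the genes that fell far without the letters in this window. In K36M the medians were -0.13 and -0.10. The ranges overlap, the 2 sets were not tested against each other, and a match is a description of letters and not of binding. CCAAT was found for 20 of the 35 genes (57.1%, against 41.1% of all genes) and the cell cycle homology letters TTTGAA for 6 (17.1%, against 20.2%).

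All 8 genes of helicase activation fell in WT under TGF-beta, 5 of them at least 2-fold, and none was called in K36M. Of all tested genes, 33.4% fell in WT, 18.3% fell at least 2-fold there, and 48.3% were called in K36M. Mcm10 (chr2:4910760-4933837), which helps the assembled helicase start to move, had the largest fall of all 44 genes, 7.77-fold. It measured 113 and 89.3 CPM in WT Repsox, 14.3 and 11.8 in WT TGF-beta, 110 and 100 in K36M Repsox, and 107 and 102 in K36M TGF-beta (-2.96 ± 0.12 in WT, adjusted p = 2.29e-15, and -0.01 ± 0.10 in K36M, adjusted p = 0.968). The WT pairs lay far apart, and the K36M pairs overlapped. Its interaction of 2.95 ± 0.16 was also the highest of the 44.

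Cdc45 (chr16:18780540-18812080), which joins MCM and GINS in the active helicase, measured 29.2 and 27.9 CPM in WT Repsox, 7.40 and 8.11 in WT TGF-beta, 38.4 and 36 in K36M Repsox, and 38.8 and 34.2 in K36M TGF-beta. Both K36M groups lay above both WT groups. Cdc45 fell 3.67-fold in WT (-1.87 ± 0.14, adjusted p = 5.80e-11) and was not called in K36M (-0.03 ± 0.11, adjusted p = 0.866). The 4 GINS genes fell unequally in WT: Gins1 by 6.38-fold, Gins2 by 2.47-fold, Gins3 by 1.80-fold and Gins4 (chr8:24337082-24348140) by 1.64-fold, the smallest fall of the group. Gins4 measured 36.5 and 36.6 CPM, 21.1 and 23.4, 38.6 and 37.9, and 44.7 and 34.4 in WT Repsox, WT TGF-beta, K36M Repsox and K36M TGF-beta. Gins2 shares 67.3% of its exon bases with Gse1, so its counts are uncertain.

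The kinase pair that fires origins had a raised level in K36M in both media. Dbf4 (chr5:8396973-8422716), the regulatory subunit, measured 106 and 115 CPM in WT Repsox, 47.4 and 53.7 in WT TGF-beta, 141 and 140 in K36M Repsox, and 127 and 131 in K36M TGF-beta. No 2 groups overlapped, and the order ran from WT TGF-beta through WT Repsox and K36M TGF-beta to K36M Repsox. Dbf4 fell 2.18-fold in WT (-1.13 ± 0.09, adjusted p = 1.93e-10), was not called in K36M (-0.12 ± 0.08, adjusted p = 0.256), and was 1.27-fold higher in K36M than in WT under Repsox (0.34 ± 0.08, adjusted p = 0.00148). Cdc7, the catalytic subunit, was 1.61-fold higher in K36M than in WT under Repsox (0.68 ± 0.11, adjusted p = 2.28e-05), with means of 22.9 CPM in WT Repsox, 12.1 in WT TGF-beta, 36.7 in K36M Repsox and 39.3 in K36M TGF-beta.

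Of the 6 genes of the sliding clamp and its loader, 5 fell in WT under TGF-beta, 2 of them at least 2-fold. The shares over all tested genes were 33.4% and 18.3%. The median log2 fold change of these 6 genes was -0.93, beside -2.40 for helicase loading and -1.68 for the MCM subunits. Pcna (chr2:132074898-132079050) encodes the clamp that tethers the polymerases, and measured 109 and 122 CPM in WT Repsox, 61.3 and 59.3 in WT TGF-beta, 95.2 and 95.8 in K36M Repsox, and 95.1 and 85.7 in K36M TGF-beta. The WT pairs were separate, and the K36M libraries lay between them. Its fall in WT was 1.92-fold (-0.94 ± 0.09, adjusted p = 3.74e-09), and its K36M difference was not called (-0.08 ± 0.09, adjusted p = 0.488).

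Rfc1 (chr5:65653091-65726909), the large loader subunit, measured 133 and 136 CPM in WT Repsox, 74.9 and 68.5 in WT TGF-beta, 153 and 151 in K36M Repsox, and 147 and 171 in K36M TGF-beta, a fall of 1.88-fold in WT (-0.91 ± 0.09, adjusted p = 5.57e-09). The small subunits ranged from a clear fall to no call. Rfc5 (chr5:117828112-117839056) had the highest interaction of the group, 1.56 ± 0.13, with 80.9 and 73.8 CPM in WT Repsox, 27.7 and 26.6 in WT TGF-beta, 73.9 and 78.3 in K36M Repsox, and 78.2 and 78.8 in K36M TGF-beta. Rfc4 (chr16:23114016-23127810) measured 14.2 and 17.6 CPM, 6.37 and 3.23, 21.8 and 24.6, and 16.9 and 17.1 in the same order, a 3.36-fold fall in WT.

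Rfc3 (chr5:152445331-152453817) was the loader subunit that did not pass the test in WT. It measured 19.1 and 20.9 CPM in WT Repsox, 17.9 and 17.2 in WT TGF-beta, 22.6 and 23.9 in K36M Repsox, and 19.1 and 19.3 in K36M TGF-beta. The WT difference was -0.19 ± 0.13 (adjusted p = 0.224, 95% interval -0.46 to 0.09), the K36M difference was -0.28 ± 0.13 (adjusted p = 0.0826), and the interaction was -0.09 ± 0.18 (adjusted p = 0.713). With library totals as the only scaling the WT difference passed (adjusted p = 0.0128). Rfc4 and Rfc5 share 12.7% and 10.7% of their exon bases with Eif4a2 and Wsb2.

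All 9 genes of the polymerases, primase and RPA fell in WT under TGF-beta, 8 of them at least 2-fold, against 33.4% and 18.3% of all tested genes. Pole (chr5:110715325-110766493), the catalytic subunit of the leading-strand polymerase epsilon, measured 121 and 111 CPM in WT Repsox, 38.0 and 33.1 in WT TGF-beta, 120 and 122 in K36M Repsox, and 122 and 117 in K36M TGF-beta. The WT TGF-beta pair lay below the other 6 libraries, which ran from 111 to 122 CPM. Pole fell 3.28-fold in WT (-1.71 ± 0.09, adjusted p = 2.88e-13) and was not called in K36M (-0.02 ± 0.09, 95% interval -0.19 to 0.16). Its accessory subunit gene Pole2 fell 6.57-fold in WT. Pold1, the catalytic subunit of the lagging-strand polymerase delta, fell 4.92-fold in WT and was the member that rose in K36M (0.25 ± 0.10, adjusted p = 0.0422, from 112 and 108 CPM to 138 and 123). That rise was lost without either K36M Repsox library (adjusted p = 0.115 and 0.19) or the first K36M TGF-beta library (0.344), and with DESeq2 (0.0523).

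Primase makes the RNA primers, and its 2 subunit genes had the largest and the smallest fall of the 9 in WT. Prim1 (chr10:127452228-127467093), the catalytic subunit, measured 31.2 and 33.4 CPM in WT Repsox, 5.25 and 4.31 in WT TGF-beta, 37.8 and 38.5 in K36M Repsox, and 31.7 and 36.6 in K36M TGF-beta. Prim2 (chr1:33510656-33726631), the large subunit, measured 27.2 and 26.7, 17.3 and 15.4, 33.7 and 31.9, and 28.8 and 28.9 CPM. Prim1 fell 6.79-fold (-2.76 ± 0.15, adjusted p = 3.41e-13) and Prim2 1.65-fold (-0.72 ± 0.12, adjusted p = 2.39e-05). Neither was called in K36M, and their interactions of 2.60 ± 0.19 and 0.54 ± 0.17 were the highest and lowest of the 9 genes. The Prim2 interaction (adjusted p = 0.011) was lost without the second WT TGF-beta library (0.0771).

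In WT under TGF-beta the spread among Pola1, Pola2, Prim1 and Prim2, which form 1 complex, widened as well. Per kb of exon, the highest was 2.65 and 2.31 times the lowest in WT Repsox, 5.87 and 6.35 times in WT TGF-beta, 4.45 and 4.23 times in K36M Repsox, and 3.02 and 3.0 times in K36M TGF-beta. This spread was also above WT Repsox in all 4 K36M libraries. The MCM spread was above WT Repsox (1.54 and 1.55) in both K36M Repsox libraries (1.71 and 1.69) and in the second K36M TGF-beta library (1.58). It was below WT Repsox in the first K36M TGF-beta library (1.47). Among Gins1 to Gins4 the spread was 7.99 and 7.66 in WT Repsox and 10.9 and 16.5 in WT TGF-beta. In K36M the Gins spread was 8.49 and 8.5 under Repsox and 8.29 and 6.6 under TGF-beta. Among Rfc1 to Rfc5 the spread was 6.17 and 5.21 in WT Repsox and 4.53 and 8.38 in WT TGF-beta, so the WT pairs overlapped. The Rfc spread was 6.51 and 4.95 in K36M Repsox and 8.08 and 7.48 in K36M TGF-beta. Pola2 measured 61.5 and 56.7 CPM in WT Repsox and 99.8 and 91.0 in K36M Repsox. Pola2 was the member with the largest difference between genotypes under Repsox (0.69 ± 0.09, 1.61-fold, adjusted p = 5.85e-07), and it fell in both genotypes under TGF-beta, by 3.40-fold in WT and 1.35-fold in K36M. The single-strand binding subunits Rpa1 and Rpa2 fell 2.30-fold and 2.75-fold in WT and were not called in K36M.

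Of the 2 genes that finish Okazaki fragments, Lig1 (chr7:13862632-13896782), the ligase that seals the nicks, measured 156 and 122 CPM in WT Repsox, 25.3 and 21.3 in WT TGF-beta, 181 and 168 in K36M Repsox, and 166 and 153 in K36M TGF-beta. It fell 5.97-fold in WT (-2.58 ± 0.12, adjusted p = 9.19e-15) and was not called in K36M (-0.13 ± 0.10, adjusted p = 0.31). Fen1 (chr19:10273622-10278659), the flap nuclease, measured 8.22 and 5.59, 5.68 and 4.02, 9.15 and 7.88, and 6.41 and 6.64 CPM. Its WT groups overlapped and the difference did not pass (-0.53 ± 0.25, adjusted p = 0.0692, 95% interval -1.04 to -0.01). Fen1 shares 84.2% of its exon bases with genes on the other strand, and the strand setting of the counting is not given in the sources used here, so its low counts may not represent the gene. The WT fall of Fen1 passed under 5 of 16 alternatives: without the second WT Repsox library (adjusted p = 0.0109) or the first WT TGF-beta library (0.0315), with upper quartile factors (0.0444) or library totals (0.0143), and without the filter on low counts (0.0472).

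Of the 4 nucleotide supply genes, 3 fell in WT and 2 fell in K36M, against 33.4% and 23.6% of all tested genes. Ribonucleotide reductase, which makes deoxynucleotides, consists of a large subunit from Rrm1 and a small subunit from Rrm2. Rrm2 (chr12:25393106-25399011) measured 264 and 255 CPM in WT Repsox, 102 and 102 in WT TGF-beta, 215 and 213 in K36M Repsox, and 206 and 204 in K36M TGF-beta. Rrm1 (chr7:109590209-109618285) measured 157 and 168, 169 and 172, 208 and 208, and 237 and 229 CPM in the same order. Rrm2 fell 2.55-fold in WT (-1.35 ± 0.07, adjusted p = 2.41e-13), whereas the WT difference of Rrm1 was 0.07 ± 0.07 (adjusted p = 0.392, 95% interval -0.08 to 0.23). The ratio of Rrm1 to Rrm2 per kb of exon was accordingly 0.413 and 0.456 in WT Repsox and 1.15 and 1.18 in WT TGF-beta, with 0.671 and 0.676 in K36M Repsox and 0.799 and 0.779 in K36M TGF-beta.

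Tyms and Tk1, which supply thymidine nucleotides by synthesis and by salvage, fell under TGF-beta in both genotypes. Tyms (chr5:30384742-30400157), thymidylate synthase, measured 41.0 and 38.8 CPM in WT Repsox, 21.1 and 15.7 in WT TGF-beta, 39.6 and 39.1 in K36M Repsox, and 23.7 and 26.7 in K36M TGF-beta. All 4 TGF-beta libraries lay below all 4 Repsox libraries. Tyms fell 2.18-fold in WT (-1.12 ± 0.13, adjusted p = 1.05e-07) and 1.56-fold in K36M (-0.64 ± 0.13, adjusted p = 0.000209). Its interaction, 0.48 ± 0.18 (adjusted p = 0.032), was lost without the second WT TGF-beta library (0.275), either K36M Repsox library (0.064 and 0.0761) or the second K36M TGF-beta library (0.129), and with DESeq2 (0.0938). Tk1, thymidine kinase, went from 40.1 and 41.1 CPM to 17.0 and 17.5 in WT and from 41.3 and 40.8 to 28.1 and 25.6 in K36M, falls of 2.35-fold and 1.53-fold, and its interaction was 0.62 ± 0.16 (adjusted p = 0.00224).

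**Figure D4:**
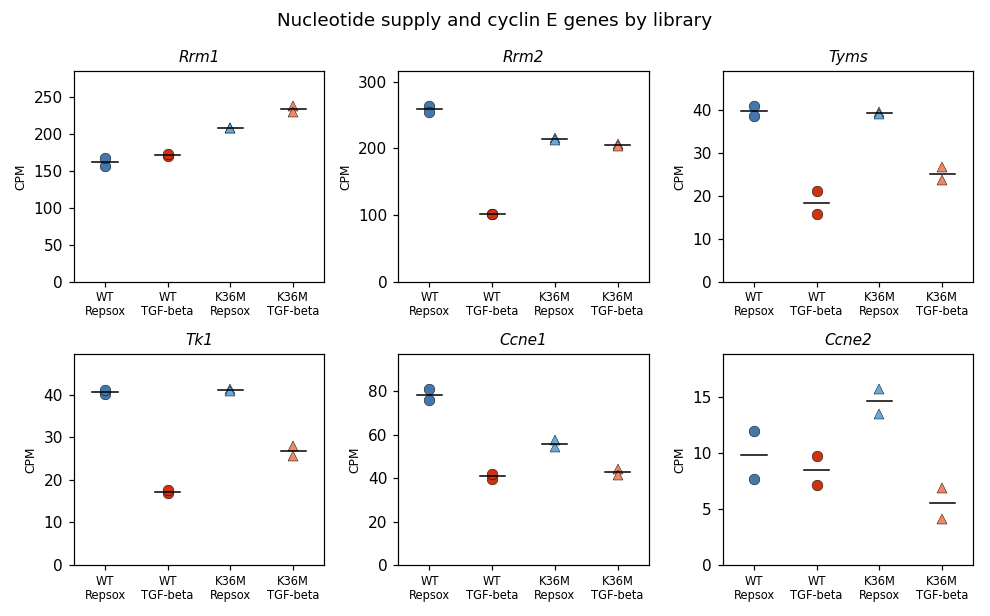
CPM of 4 nucleotide supply genes and the 2 cyclin E genes in each library, with a bar at each group mean and every vertical axis starting at 0. Rrm1 is not low in WT TGF-beta, Tyms and Tk1 are lower under TGF-beta in both genotypes, and Ccne2 is lowest in K36M TGF-beta.

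The chromatin assembly factor deposits new histone H3 and H4 behind the fork. Chaf1b (chr16:93884146-93906360), the middle subunit, measured 43.2 and 35.1 CPM in WT Repsox, 9.12 and 10.6 in WT TGF-beta, 56.1 and 52.2 in K36M Repsox, and 44.9 and 42.9 in K36M TGF-beta. Chaf1a (chr17:56179827-56206973), the large subunit, measured 94.7 and 75.3, 27.6 and 26.4, 73.3 and 74.7, and 77.9 and 75.5 CPM. Both WT TGF-beta pairs lay below all other libraries. Chaf1b fell 3.97-fold (-1.99 ± 0.13, adjusted p = 1.21e-11) and Chaf1a 3.16-fold (-1.66 ± 0.11, adjusted p = 4.41e-12) in WT, and their interactions were alike at 1.68 ± 0.18 and 1.71 ± 0.14. In K36M, Chaf1b fell 1.24-fold (-0.30 ± 0.11, adjusted p = 0.0287), a call lost on leaving out any of the 4 K36M libraries (adjusted p from 0.0508 to 0.185), with upper quartile factors (0.0686) or with DESeq2 (0.0982). Chaf1a was not called in K36M.

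The products of the cyclin E genes activate Cdk2 at the G1/S transition. Both genes were lower under TGF-beta in K36M, against 23.6% of all tested genes. In WT, where the share was 33.4%, only Ccne1 passed the test. Ccne1 (chr7:38883003-38892553) measured 81.0 and 76.0 CPM in WT Repsox, 39.6 and 42.1 in WT TGF-beta, 54.4 and 57.4 in K36M Repsox, and 44.1 and 41.2 in K36M TGF-beta. WT Repsox was the high group, and the 2 TGF-beta groups overlapped. Ccne1 fell under TGF-beta 1.92-fold in WT (-0.94 ± 0.09, adjusted p = 6.86e-09) and 1.31-fold in K36M (-0.39 ± 0.09, adjusted p = 0.00161), and it was 1.41-fold lower in K36M when the genotypes were compared in Repsox (-0.49 ± 0.09, adjusted p = 6.74e-05). Under TGF-beta the genotype difference was 0.06 ± 0.10 (adjusted p = 0.567, 95% interval -0.14 to 0.26).

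Ccne2 (chr4:11118498-11131926) was low in all libraries, with 7.68 and 11.9 CPM in WT Repsox, 7.14 and 9.77 in WT TGF-beta, 13.5 and 15.7 in K36M Repsox, and 4.14 and 6.90 in K36M TGF-beta. The WT groups overlapped, and both K36M TGF-beta libraries lay below every other library. Ccne2 fell 2.65-fold in K36M (-1.41 ± 0.25, adjusted p = 5.38e-05), and its WT difference was not called (-0.20 ± 0.24, adjusted p = 0.488, 95% interval -0.69 to 0.30). The interaction was -1.21 ± 0.34 (adjusted p = 0.00532), and it was lost without the first K36M TGF-beta library (adjusted p = 0.0548). Ccne2 shares 17.4% of its exon bases with Ints8 on the other strand.

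Comparing the genotypes within a medium places the same libraries side by side in another way, so these comparisons share libraries with those above. Under Repsox, 16 of the 44 genes were higher in K36M than in WT and 3 were lower, against 28.8% and 26.9% of all tested genes (55.8% either way), with a median of 0.15 beside 0.04. No member differed 2-fold, and the 95% interval stayed inside 2-fold for 43 of them. The genes that were higher were Mcm2, Orc1, Cdc6, Gmnn, Cdc45, Gins2, Rfc4, Pola2, Prim2, Pold1, Lig1, Rrm1, Chaf1b, Ccne2, Cdc7 and Dbf4. Of these, Pola2, Rrm1, Chaf1b, Cdc7 and Dbf4 were called under all 16 alternatives. Cdc45 and Gins2 were called under 15, Rfc4 and Lig1 under 14, Ccne2 under 12, Gmnn under 11, Pold1 under 10, Prim2 under 8, Orc1 under 7, Mcm2 under 6 and Cdc6 under 5. The genes that were lower were Pcna (-0.28 ± 0.09, adjusted p = 0.0085), Rrm2 (-0.28 ± 0.07, adjusted p = 0.0019) and Ccne1. With library totals as the only scaling, 11 were higher and 4 lower, and DESeq2 called 10 higher and 3 lower. Higher calls numbered 7 without the first K36M Repsox library, and 10 without the second K36M Repsox or the second WT Repsox library, the last of which also gave 5 lower calls. The Pcna call was lost without the second WT Repsox library (adjusted p = 0.0615) or either K36M Repsox library (0.0684 and 0.0525).

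Under TGF-beta, 40 of the 44 genes were higher in K36M than in WT and 1, Ccne2, was lower, against 36.4% and 33.9% of all tested genes (70.3% either way). The libraries of the 2 genotypes did not overlap for 43 members, against 85.2% of all genes. The median difference was 1.5 on the log2 scale beside 0.05 over all genes, and 32 members were at least 2-fold higher, against 22.4%. The differences ranged up to 3.01 ± 0.12 for Mcm10, 2.93 ± 0.15 for Gmnn and 2.84 ± 0.15 for Prim1. The smaller ones included Rrm1 (0.45 ± 0.07, adjusted p = 1.04e-05), Mcm6 (0.46 ± 0.08, adjusted p = 2.35e-05) and Tyms (0.46 ± 0.14, adjusted p = 0.00486), the last lost without the second library of either TGF-beta group (adjusted p = 0.169 and 0.0551). Rfc3, Fen1 and Ccne1 did not pass. The lower call of Ccne2 (-0.64 ± 0.26, adjusted p = 0.0346) was lost without the second WT TGF-beta library (0.296) or the first K36M TGF-beta library (0.39).

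Other genes of the fork and of the cell cycle were counted from lists chosen by function. Beside the counts of these lists stand the shares of all tested genes, 33.4% lower and 29% higher in WT and 23.6% lower and 24.7% higher in K36M. Of 44 further fork and origin genes, TGF-beta against Repsox called 32 lower and 3 higher in WT (median -0.91) and 11 lower and 9 higher in K36M (median -0.07), the K36M counts being close to the shares over all genes. Of 17 genes of the replication checkpoint and fork protection, 13 were lower and 0 higher in WT (median -2.0), and 5 lower and 1 higher in K36M (median -0.19). All 26 genes of mitosis and G2/M fell in WT, each at least 2-fold, with a median of -2.38. In K36M 14 of them rose and 0 fell, with a median of 0.23, where the replication genes had 1 higher and 9 lower. Mki67, a proliferation marker, had means of 486 CPM in WT Repsox, 110 in WT TGF-beta, 753 in K36M Repsox and 931 in K36M TGF-beta, and Top2a had 451, 75, 624 and 794.

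**Figure D5:**
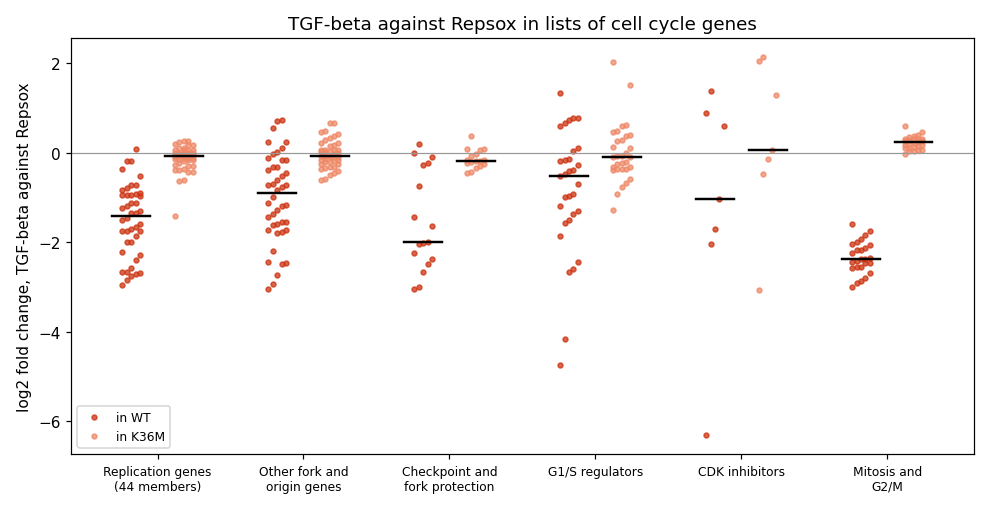
Log2 fold change of TGF-beta against Repsox for each gene of the 44 replication genes and of 5 other lists, in WT (dark red) and in K36M (orange), with a bar at each median. In WT the medians are -1.41, -0.91, -2.0, -0.53, -1.05 and -2.38 from left to right, and in K36M they lie between -0.19 and 0.23.

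Of 31 regulators of the G1/S transition, 20 were lower and 6 higher in WT, and 11 lower and 10 higher in K36M. All tested genes also changed in both directions, with 33.4% lower and 29% higher in WT and 23.6% and 24.7% in K36M. Among those that fell in WT were the activator E2f1 (means of 42.9 CPM in WT Repsox, 18.8 in WT TGF-beta, 45.9 in K36M Repsox and 36.4 in K36M TGF-beta) and the E2F-regulated repressors E2f7 (38.1, 10.5, 55.7 and 52.2) and E2f8 (36.2, 5.52, 64.5 and 34.2). Cdk2, the kinase partner of cyclin E, had means of 70.2, 23.5, 78.3 and 59.5 CPM, and it fell in both genotypes. Ccna2, the S phase cyclin, had means of 134, 24.5, 159 and 204 CPM, falling in WT and rising in K36M. Mybl2, a transcription factor gene that is itself an E2F target, fell in both genotypes, with means of 286, 15.9, 379 and 156 CPM.

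The D-type cyclins partner the kinases that act earlier in G1. Ccnd1 had means of 713 CPM in WT Repsox, 591 in WT TGF-beta, 75.8 in K36M Repsox and 114 in K36M TGF-beta, and Ccnd2 had 2095, 3570, 122 and 496. Both were lower in K36M than in WT in either medium. Of 7 CDK inhibitor genes, 4 were lower and 3 higher in WT under TGF-beta, and 2 lower and 3 higher in K36M. Under TGF-beta, 4 were higher and 3 lower in K36M than in WT, against 36.4% and 33.9% of all tested genes. The median of that difference was 1.58. The interaction was positive for 4 and negative for 0, against 28.5% and 22.6%, with a median of 1.55. Cdkn1a, which encodes the CDK inhibitor p21, rose under TGF-beta in both genotypes, with means of 449, 1168, 151 and 366 CPM. Its interaction was not called (-0.10, adjusted p = 0.368) and was the lowest of the 7. The interactions of the list ran up to 3.24, and the 4 positive calls were each at least 2-fold. Cdkn1c, which encodes p57, fell in both genotypes, with means of 286, 3.5, 462 and 54.7 CPM. Myc, whose counts may include the OKSM transgene, had means of 365, 574, 134 and 186 CPM, highest in the group in which the replication genes were lowest.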

How the data were processed

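RNA-seq gene counts of 8 libraries (4 groups of 2) were used. The deposited counts are whole reads per gene, not normalised. Per the submitters' processing notes, the authors used STAR 2.5.0, HTSeq 0.11.2 and edgeR with the mm9 genome; the annotation, strand setting and filters are not given in the sources used here. Groups were taken from the labels. edgeR 4.0.16 in R 4.3.3 was fitted to the counts as deposited over all 8 libraries (TMM scaling, filterByExpr keeping 15789 genes, 4 group means, quasi-likelihood F test), giving 4 pairwise comparisons and the interaction. P-values were adjusted by Benjamini-Hochberg over all tested genes in each comparison, and genes below 0.05 were called. With 2 libraries a group, 4 residual degrees of freedom support each test, and the fit shares the spread across genes; an exact permutation of 2 against 2 libraries cannot go below p = 0.333. Standard errors were derived from each F statistic and its log2 fold change, and intervals are 95%. CPM uses TMM-scaled totals. Per-kb levels divide by GENCODE vM1 exon length on mm9, which also gave coordinates and exon overlaps for all 44 members. The fit was tested on simulated data, where the share of wrong calls lay above the nominal level in some comparisons and below it in others. The simulation changed far fewer genes than were called in these data, in random directions. It therefore cannot show how the scaling behaves when changes are this widespread.

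The members and lists were chosen with earlier results of these data known. Library values are printed for key members of each role and for those with the highest and lowest response in WT and interaction in each role group. Every member called against the direction of the median is named. Of the listed genes, Ticrr, Supt16 and Rad9a had no row under these symbols and were not analysed here. No promoter entry was matched for Rfc2, Gmnn, Gins4, Prim2, Gins2, Pole, Gins1, Ccne2 and Mcm4. Alternatives were other scalings (RLE, upper quartile, library totals), DESeq2 1.42.0, 2 other filters, only the 4 libraries of a comparison, a replicate block, and leaving out each library.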

Additional observations from a re-analysis of the deposited data

Results flagged for a closer look

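The response to TGF-beta differed between the genotypes, by the edgeR interaction test at an adjusted p below 0.05, for 41 of the 44 replication genes, against 51% of all 15789 genes tested. Values are log2 differences, the response in K36M minus the response in WT, so a positive value means a smaller fall or none in K36M. No explanation was tested. The cell type markers given above also differed between groups, though not only where the replication genes did. Under Repsox, 14 of 15 fibroblast markers were lower in K36M than in WT, against 26.9% of all tested genes. There 12 of 12 epithelial markers were higher, against 28.8%, and the median of the replication genes was 0.15.

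Among the genes of helicase loading the difference was 2.63 for Gmnn, 2.55 for Cdt1, 2.03 for Orc1, 1.90 for Cdc6 and 0.72 for Orc6. Among the MCM subunits it was 2.53 for Mcm5, 2.07 for Mcm3, 1.64 for Mcm2, 1.58 for Mcm7, 1.04 for Mcm4 and 0.36 for Mcm6. The helicase activation genes had 2.95 for Mcm10, 2.62 for Gins1, 1.85 for Cdc45, 1.56 for Gins2, 1.08 for Gins3, 1.02 for Cdc7, 1.01 for Dbf4 and 0.77 for Gins4. For the clamp and its loader the values were 1.56 for Rfc5, 1.30 for Rfc4, 0.97 for Rfc1, 0.95 for Rfc2 and 0.87 for Pcna.

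The polymerase group had 2.60 for Prim1, 2.58 for Pole2, 2.55 for Pold1, 1.70 for Pole, 1.55 for Pola1, 1.45 for Rpa2, 1.33 for Pola2, 1.12 for Rpa1 and 0.54 for Prim2. Lig1 had 2.45. The nucleotide supply genes had 1.29 for Rrm2, 0.62 for Tk1 and 0.48 for Tyms, and the chromatin assembly genes 1.71 for Chaf1a and 1.68 for Chaf1b. The cyclin E genes differed in sign, with 0.56 for Ccne1 and -1.21 for Ccne2.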

How the results depend on the processing

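In WT, TGF-beta against Repsox called 40 to 42 replication genes lower and 0 higher under all 16 alternatives, and none of the 40 calls was lost. The interaction called 38 to 41 members higher under its 15 alternatives, and K36M against WT under TGF-beta called 39 to 43 higher under 16. The lower call of K36M against WT under TGF-beta, Ccne2, went to 0 with upper quartile factors, library totals, DESeq2 or the filter on average log2 CPM, and was 0 to 1 when a library was left out; that of the interaction was 0 to 1. In K36M, TGF-beta against Repsox called 2 members higher with RLE factors, library totals or that filter and 3 with upper quartile factors or only the 4 libraries of the comparison; leaving out a library gave 0 to 3 higher and 5 to 12 lower. K36M against WT under Repsox called 10 members higher with DESeq2, without a filter (with 5 lower) or with only the 4 libraries; leaving out a library gave 7 to 16 higher and 2 to 5 lower. The cause of these changes was not tested.

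Library totals alone moved the median of all genes in WT from -0.07 to -0.28 and that of the members from -1.41 to -1.62; in the interaction the medians moved from 0.09 to 0.31 and from 1.39 to 1.61. Of 3476 single-member values, 105 values lost and 47 gained a call, and 59 changed sign, each where the member was called in neither fit.

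Deviations between the replicates of a group correlated little across groups (from -0.02 to 0.09 over 11740 genes). The labels do not say whether replicate numbers pair the samples, and these correlations cannot decide it. With the replicate block the counts, higher and lower, were 17 and 4 for K36M against WT under Repsox, 40 and 1 under TGF-beta, 0 and 40 for TGF-beta in WT, 1 and 9 in K36M, and 40 and 1 for the interaction.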
